A study of Homo sapiens with 6 samples.

Results

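Amino acid transporters are membrane proteins that carry amino acids into, out of and within cells. The genes described here are the protein-coding members of the SLC1, SLC3, SLC7, SLC36, SLC38 and SLC43 families, chosen by gene symbol and biotype, with SLC7A11 left out by the rule. This gave 39 of the 47432 listed genes. RNA-seq libraries of the human melanoma cell line LOX-IMVI gave their expression. A short hairpin RNA was brought into the cells by lentivirus, followed by selection with puromycin. The hairpin was a control (shCtrl) in one group and targeted NFKBIZ (shNFKBIZ) in the other. NFKBIZ encodes IκBζ, a nuclear co-regulator of NF-κB, and the study asks what its constitutive expression does in melanoma cells. There were 3 libraries per group, described by the study as independent experiments, with 1 hairpin construct against NFKBIZ and 1 cell line.

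Each library held between 22264473 and 24624839 total exon reads. Exon reads of NFKBIZ (chromosome 3, 101827991 to 101861022, hg38) numbered 1519, 1629 and 1674 in the shCtrl libraries against 474, 477 and 468 in shNFKBIZ (log2 fold change -1.78, SE 0.0581). Of 7 melanocyte lineage markers, SOX10 and MLANA had 0 reads in the 6 libraries, and PMEL, TYR, TYRP1 and DCT had at most 11 reads in any library. MITF was present at 3.21 TPM (a transcript level corrected for gene length and sequencing depth) in shCtrl and 2 TPM in shNFKBIZ. Of 4 markers of undifferentiated melanoma, AXL (407.0 and 485.8 TPM), EGFR (39.6 and 66.2 TPM) and SOX9 (21.6 and 55.1 TPM) were expressed, and NGFR had at most 3 reads. Of 8 markers of other cell types, PTPRC, CD3E, EPCAM, KRT5, PECAM1 and VWF had at most 5 reads in a library. KRT14 had 4 to 10 reads in shCtrl and 19 to 24 in shNFKBIZ. CD68 was listed at 98.5 and 198.4 TPM, with 6.61% of its exon reads unique to it. The part of these shifts in the transporter changes was not tested.

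Most cells take up glutamine and small neutral amino acids together with sodium, through transporters of the SLC1 and SLC38 families. The SLC7 proteins work largely as exchangers, and several of them reach the plasma membrane only when bound to the heavy chain encoded by SLC3A2 (CD98hc). Some SLC36 and some SLC38 proteins lie in lysosomal membranes, where amino acid levels are read by the kinase complex mTORC1. In many cell types transporter genes are induced by the transcription factor ATF4 when amino acids are scarce, through a C/EBP-ATF response element (CARE).

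A few genes carried most of the transcripts. Of the 39 genes, 19 passed the filter on low counts and were tested, and 18 of these reached a mean of 1 TPM in at least 1 group. The 8 genes of highest level held 90.3% to 92.9% of the summed TPM of all 39 in each library. They were SLC1A5, SLC43A3, SLC7A5, SLC38A2, SLC7A1, SLC3A2, SLC38A1 and SLC38A10, in the order of their mean over the 6 libraries. The summed TPM of the 39 genes was 1573.5 ± 43.4 (SD, n = 3) in shCtrl and 1434.6 ± 31.6 (SD, n = 3) in shNFKBIZ.

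In shNFKBIZ cells most of the tested transporter genes shifted by less than 2-fold, in both directions. With an adjusted P of at most 0.05 in the edgeR quasi-likelihood test, 16 of 19 genes differed, 7 of them higher and 9 lower. Across all 13843 genes tested, 65.3% differed by this rule, 32.5% higher and 32.8% lower. Among genes with a mean of at least 100 exon reads, 15 of the 16 transporters differed, against 71.6% of all such genes. When a change of at least 2-fold was also required, 1 of the 19 remained, SLC1A4, which was higher, while 8.96% of all tested genes were past this threshold, 3.84% higher and 5.12% lower. The median absolute log2 fold change was 0.40 for the 19 genes and 0.30 for all tested genes, and the signed medians were -0.15 and 0.0043. In depth-corrected counts (CPM), the ranges of shCtrl and shNFKBIZ were apart for 16 of the 19 genes and for 68.7% of all tested genes. Fewer cells that express a gene and less RNA of it per cell cannot be told apart in bulk samples.

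**Figure D1:**
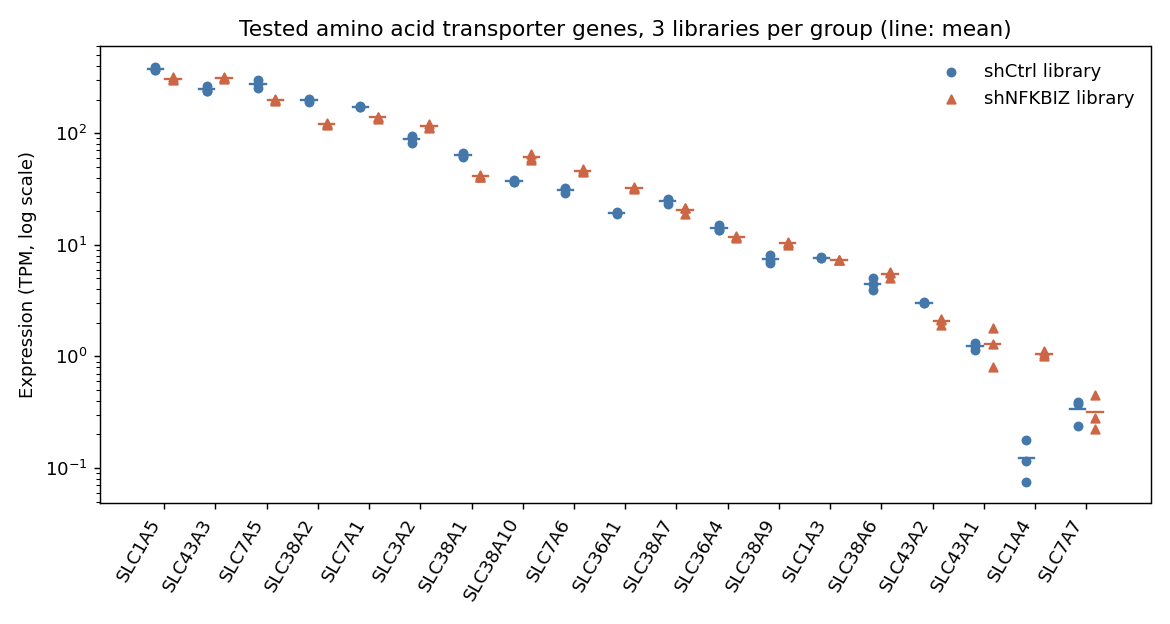
Expression of the 19 tested amino acid transporter genes in TPM on a log scale, with 1 point per library (circles, shCtrl; triangles, shNFKBIZ) and a line at each group mean, ordered by the mean over all libraries. SLC1A5, at the left, was at 375.8 TPM in shCtrl and 307.6 TPM in shNFKBIZ, while SLC1A4, near the right, was at 0.123 and 1.05 TPM.

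SLC1A5, SLC38A2 and SLC38A1 fell in shNFKBIZ cells, and SLC1A4, at a far lower level, rose. SLC1A5 (ASCT2; chromosome 19, 46774883 to 46788594) encodes a glutamine exchanger and was the most abundant of the 39 genes. It was at 368.9, 391.3 and 367.1 TPM in shCtrl and at 303.0, 320.0 and 299.7 TPM in shNFKBIZ. Every shNFKBIZ library was below every shCtrl library, and the change was -0.37 on the log2 scale (SE 0.037, adjusted P 1.2e-08, edgeR).

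SLC38A2 and SLC38A1 encode SNAT2 and SNAT1, the carriers of the classical system A for alanine, serine and glutamine. They are neighbours on chromosome 12, at 46358188 to 46372773 and 46183063 to 46270017, and had the largest falls of the 19 genes. SLC38A2 was at 197.6, 190.9 and 202.4 TPM in shCtrl and at 121.7, 118.3 and 122.8 TPM in shNFKBIZ (log2 fold change -0.78, SE 0.0352, adjusted P 1.77e-14, edgeR). SLC38A1 was at 63, 61.4 and 66.7 TPM and at 40.5, 40.9 and 41.9 TPM (log2 fold change -0.71, SE 0.0377, adjusted P 3.09e-13, edgeR). The groups did not overlap for either gene. SLC38A4, the third gene of this family in the same stretch of chromosome 12, had at most 1 read in a library.

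SLC1A4 (ASCT1; chromosome 2, 64988477 to 65023865) encodes a carrier of alanine, serine and cysteine, which also takes up D-serine in the brain. Its exon reads numbered 5, 8 and 3 in shCtrl against 45, 40 and 43 in shNFKBIZ. These counts correspond to 0.116, 0.179 and 0.0749 TPM against 1.11, 1 and 1.04 TPM, so the groups were far apart at a low level. The change was 2.96 on the log2 scale (SE 0.312, adjusted P 2.94e-08, edgeR). The summed reads were 16 and 128, a depth-corrected ratio of 8.43 (exact 95% interval 5.00 to 15.2, for counting error only). With a minimum of 10 counts in every library SLC1A4 was not tested, and the call was lost. With total gene reads, which include introns, its log2 fold change was 2.14. Even after this rise the level of SLC1A4 in TPM was far below that of SLC1A5. Intron reads of SLC1A4 numbered 5, 8 and 3 in shCtrl and 5, 6 and 6 in shNFKBIZ, too few to be tested. LINC02245, a non-coding gene that overlaps it on the opposite strand, had 41 to 51 exon reads in shCtrl and 33 to 40 in shNFKBIZ.

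The CARE letters TGATGNAA were searched for on both strands of the RefSeq promoters (GRCh38.p14, 250 bases before to 50 after each start). Sites outside this window, as in introns, were not searched, so a gene without a match may hold one elsewhere. Of the 19 tested genes 18 had a promoter entry, and 6 of these held a match, while 4.46% of all 27305 genes with an entry did. A gene can have several entries, and counted over entries the share was 6 of 36 for the tested transporters and 3.62% of all 35116. Here and for the motifs below, the shares of all genes were not limited to genes that passed the filter on low counts. No excess can therefore be read from these counts. The 6 matches are printed below on the strand of the gene, with the matched letters in capitals and, for matches on the other strand, their reverse complement. The windows lie at chr5:36596358-36596385, chr2:64989382-64989409, chr19:46784894-46784921, chr12:46266503-46266530, chr11:62881726-62881748 and chr13:29595664-29595691, in the order shown.
SLC1A3: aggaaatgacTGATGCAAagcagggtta
SLC1A4: cggctcccgtTTGCATCAtctccagccg
SLC1A5: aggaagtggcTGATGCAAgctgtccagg
SLC38A1: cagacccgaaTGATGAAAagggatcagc
SLC3A2: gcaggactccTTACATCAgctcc
SLC7A1: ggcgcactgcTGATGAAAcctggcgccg
Of these 6 genes, SLC1A4 and SLC3A2 were higher and SLC1A3, SLC1A5, SLC38A1 and SLC7A1 were lower in shNFKBIZ cells. A role of the matches in these changes was not tested. A search of both strands for the consensus κB site of NF-κB found a match in 4 of the 18 tested genes and in 13.3% of all genes. Counted over entries, the κB site was in 4 of 36 for the tested transporters and in 11.3% of all. The E-box CACGTG was found in 6 of the 18, SLC1A5, SLC36A1, SLC38A7, SLC43A1, SLC7A5 and SLC7A7, and in 8.77% of all genes. Over entries, the E-box was in 6 of 36 and in 7.26% of all. SLC36A1 held 2 E-boxes. No match of one motif overlapped a match of another in these genes, and a match is not evidence of binding.

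The heavy chain SLC3A2 and its partner SLC7A5 moved in opposite directions. SLC7A5 (LAT1; chromosome 16, 87830023 to 87869507) encodes the light chain that exchanges glutamine for leucine and other large neutral amino acids. It was at 253.7, 297.8 and 274.0 TPM in shCtrl and at 198.9, 204.0 and 195.5 TPM in shNFKBIZ. The change was -0.55 on the log2 scale (SE 0.0493, adjusted P 2.35e-07, edgeR), and 97.8% of its exon reads were unique to it. SLC3A2 (chromosome 11, 62856004 to 62888880) was at 81, 90.4 and 94.8 TPM in shCtrl and rose to 113.8, 120.2 and 111.0 TPM (log2 fold change 0.29, SE 0.0433, adjusted P 5.68e-06, edgeR). The groups did not overlap for either gene.

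SLC7A6 (y+LAT2), another partner of SLC3A2, which exchanges cationic for neutral amino acids, rose with the heavy chain. It stood at 31.1 ± 1.52 TPM (SD, n = 3) in the shCtrl libraries and at 46 ± 1.22 TPM in the shNFKBIZ libraries (log2 fold change 0.48, SE 0.0422, adjusted P 1.43e-09, edgeR). SLC7A6OS, which overlaps it on the opposite strand, had 547 to 692 exon reads in shCtrl and 623 to 709 in shNFKBIZ, ranges that overlap. SLC7A7 (y+LAT1), which is best known from kidney, gut and macrophages, had 7 to 14 reads in each library and did not pass the test (log2 fold change -0.15, SE 0.37, adjusted P 0.739, edgeR). SLC7A8 and SLC7A10, also light chains of SLC3A2, had at most 1 read.

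Set against its heavy chain within each library, SLC7A5 had 3.13, 3.3 and 2.89 transcripts per SLC3A2 transcript in shCtrl and 1.75, 1.7 and 1.76 in shNFKBIZ, on the TPM scale. The ratio of SLC7A6 to SLC3A2 was 0.351 ± 0.011 (SD, n = 3) and 0.401 ± 0.00581. That of SLC7A5 to SLC7A6 was 8.84 ± 0.546 and 4.33 ± 0.0242. The ratio of SLC38A2 to SLC38A1, which both fell, was 3.09 ± 0.0538 and 2.94 ± 0.0556. The groups did not overlap for any of these 4 ratios. A two-sided exact permutation test gave P = 0.1 for each (0.1 after adjustment over the 4 ratios), which is the smallest value that 3 against 3 libraries can give.

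**Figure D2:**
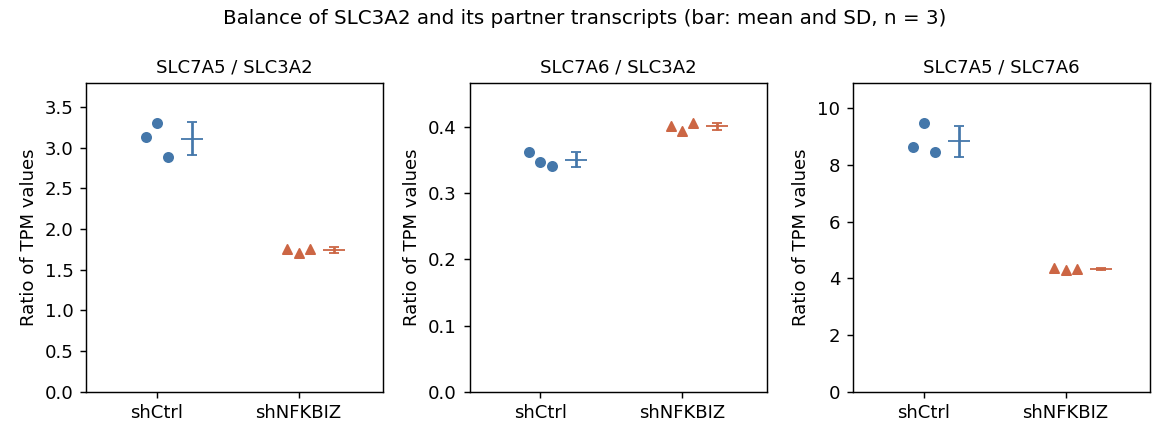
Ratios of TPM values within each library for SLC7A5 to SLC3A2, SLC7A6 to SLC3A2 and SLC7A5 to SLC7A6, with 1 point per library and the mean and SD (n = 3) beside the points. The ratio of SLC7A5 to SLC3A2 was 3.11 in shCtrl and 1.74 in shNFKBIZ, and that of SLC7A6 to SLC3A2 was 0.351 and 0.401.

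SLC7A1 fell, and SLC1A3 was slightly lower. SLC7A1 (CAT1; chromosome 13, 29509414 to 29595688) encodes the main carrier for arginine and lysine of most cells and needs no heavy chain. It was at 172.2, 175.9 and 172.0 TPM in shCtrl and at 139.9, 141.0 and 134.9 TPM in shNFKBIZ, which did not overlap (log2 fold change -0.41, SE 0.0337, adjusted P 6.62e-10, edgeR). SLC1A3 (EAAT1), a glutamate carrier known from glia, went from 7.68 ± 0.0628 TPM (SD, n = 3) in shCtrl to 7.32 ± 0.0607 TPM in shNFKBIZ. Its small fall (log2 fold change -0.15, SE 0.0483, adjusted P 0.0092, edgeR) depended on the scaling, since with library size alone the log2 fold change was -0.06 (adjusted P 0.266, edgeR). The arginine carriers SLC7A2 and SLC7A3 were near 0, as were SLC1A1 and SLC1A2, the other common glutamate carriers.

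Of the genes for transporters in lysosomes and other inner membranes, some rose and some fell. SLC36A1 (PAT1) exports small amino acids from lysosomes with protons, and it rose most among the genes above 2 TPM. Its exon reads numbered 815, 862 and 789 in shCtrl against 1326, 1321 and 1311 in shNFKBIZ, or 19.2 ± 0.411 and 32.3 ± 0.677 TPM (log2 fold change 0.67, SE 0.0466, adjusted P 3.4e-11, edgeR). SLC38A9, which senses lysosomal arginine for mTORC1, rose from 7.41 ± 0.638 to 10.3 ± 0.411 TPM (log2 fold change 0.40, SE 0.0692, adjusted P 3.09e-05, edgeR). SLC38A7 (SNAT7), which exports glutamine from lysosomes, fell from 24.7 ± 1.1 to 20.5 ± 1.52 TPM (log2 fold change -0.35, SE 0.0563, adjusted P 1.04e-05, edgeR). SLC36A4 fell from 14 ± 0.954 to 11.8 ± 0.127 TPM (log2 fold change -0.34, SE 0.059, adjusted P 3.48e-05, edgeR). SLC36A2 and SLC36A3, which lie beside SLC36A1 on chromosome 5, had at most 1 read in a library.

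SLC38A10, a less well known member of its family, was at 36.5, 36.9 and 38.2 TPM in shCtrl and at 60.4, 64.8 and 57.6 TPM in shNFKBIZ. These groups did not overlap, and the change was 0.63 on the log2 scale (SE 0.0407, adjusted P 9.43e-12, edgeR). SLC38A6 was at 4.49 ± 0.566 and 5.46 ± 0.33 TPM and did not pass the test on exon reads (log2 fold change 0.20, SE 0.106, adjusted P 0.0996, edgeR). Its call depended on the setting: with library size alone it was 0.29 (adjusted P 0.022, edgeR), with total gene reads 0.47 (adjusted P 1.89e-06, edgeR) and without shCtrl replicate 3 it was 0.28 (adjusted P 0.0421, edgeR), within a range of adjusted P from 1.89e-06 to 0.37 over the alternatives. TRMT5, which overlaps SLC38A6 on the opposite strand, had 649 to 692 exon reads in shCtrl and 809 to 862 in shNFKBIZ. Within the SLC38 family 5 of 6 tested genes thus differed, 2 higher and 3 lower, while 71.6% of all genes with a mean of at least 100 exon reads did. The summed TPM of the family was 334.5 ± 10 in shCtrl and 259.3 ± 2.05 in shNFKBIZ.

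The SLC43 genes were at very unequal levels. SLC43A2 (LAT4), a sodium-independent carrier of leucine, phenylalanine and methionine, fell from 3.03 ± 0.0544 to 2.07 ± 0.143 TPM (SD, n = 3; log2 fold change -0.63, SE 0.103, adjusted P 1.33e-05, edgeR). SLC43A1 (LAT3), its closest relative in function, was at 1.14, 1.24 and 1.33 TPM in shCtrl and at 1.79, 1.28 and 0.811 TPM in shNFKBIZ. The groups overlapped, and no difference was detectable at 17 to 37 reads per library (log2 fold change -0.01, SE 0.272, adjusted P 0.971, edgeR). SLC43A3 is grouped here by its family name, although it is known as a carrier of purine nucleobases. It was at 240.1, 240.1 and 267.2 TPM in shCtrl and at 318.4, 314.7 and 303.8 TPM in shNFKBIZ (log2 fold change 0.25, SE 0.0368, adjusted P 4.85e-06, edgeR). Its level is uncertain because 53.2% of its exon reads were unique to it and a read-through gene, with 0 to 24 exon reads of its own, overlaps it on the same strand. On unique reads its change was 0.22 on the log2 scale.

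The remaining 20 genes were not tested. Of these, 10 had 0 reads in all 6 libraries: SLC1A1, SLC1A6, SLC1A7, SLC38A3, SLC38A8, SLC7A3, SLC7A4, SLC7A10, SLC7A13 and SLC7A14. A count of 0 allows up to 3 reads, or 0.135 CPM in the library with the lowest total. The other 10 had from 1 to 10 reads in at least 1 library: SLC1A2, SLC3A1, SLC36A2, SLC36A3, SLC38A4, SLC38A5, SLC38A11, SLC7A2, SLC7A8 and SLC7A9. SLC3A1, the heavy chain of the kidney cystine transporter, had the most, with 2, 2 and 0 reads in shCtrl and 1, 10 and 6 in shNFKBIZ. SLC3A1 overlaps the expressed gene PREPL on the opposite strand, which had 2040 to 2349 exon reads.

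Intron reads, which can come from transcripts not yet spliced, were compared as a second readout of the same libraries. Of 16 transporters with enough intron reads, 12 differed with an adjusted P of at most 0.05, 5 higher and 7 lower, while 38.8% of 12119 genes did. SLC43A2 was the one past the 2-fold threshold (intron log2 fold change -1.22, SE 0.273, adjusted P 0.000455, edgeR), which 6.60% of all genes passed and 3.89% passed as lower. Of the 11 genes that differed in both readouts, 10 had the same sign in both. The difference between the exon and intron change was then tested in one model, and 10 of the 16 transporters passed at the same adjusted P, 4 with the exon change more positive and 6 with it more negative. Among all 11025 genes in this model 28.9% did. Neither share of all genes was matched to the transporters for read depth, so no excess can be read from these counts.

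SLC38A9 was the gene with opposite signs. Its exon reads went from 403, 386 and 411 in shCtrl to 536, 501 and 561 in shNFKBIZ, while its intron reads went from 154, 146 and 123 to 113, 116 and 116. The intron log2 fold change was -0.38 (SE 0.113) and the exon change exceeded it by 0.80 (SE 0.128, adjusted P 2.73e-07, edgeR). SLC36A1 was similar in size, with an intron log2 fold change of -0.07 (SE 0.112) and an excess of the exon change of 0.75 (SE 0.121, adjusted P 3.34e-07, edgeR). In SLC36A1 the intron reads of the groups overlapped, with 114 to 124 in shCtrl and 119 to 125 in shNFKBIZ. SLC1A3 had an intron log2 fold change of -0.65 (SE 0.0795), larger in size than that of its exon reads.

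In the other direction, the exon reads of SLC38A1 and SLC7A1 fell while their intron reads did not pass the test. SLC38A1 had 282, 305 and 319 intron reads in shCtrl and 307, 316 and 285 in shNFKBIZ, which overlap, and a difference between exon and intron change of -0.61 (SE 0.0801, adjusted P 5.95e-10, edgeR). For SLC7A1, with 496 to 524 intron reads in shCtrl and 533 to 565 in shNFKBIZ, the difference was -0.41 (SE 0.0719, adjusted P 2.63e-06, edgeR). These intron reads are unscaled, and after scaling the intron log2 fold change of SLC7A1 was 0.02 (SE 0.0676, adjusted P 0.87, edgeR). SLC36A4 had a difference of -0.46 (SE 0.115, adjusted P 0.00106, edgeR). Exon and intron changes were -0.55 and -0.60 for SLC7A5, -0.37 and -0.31 for SLC1A5 and -0.78 and -0.58 for SLC38A2. Their differences of 0.07 (SE 0.112), -0.05 (SE 0.11) and -0.19 (SE 0.0824) did not pass the test (adjusted P 0.706, 0.782 and 0.0745, edgeR), which does not show that the changes were equal. The difference of SLC3A2 was -0.15 (SE 0.0995, adjusted P 0.272, edgeR), and its intron reads also rose (intron log2 fold change 0.46, SE 0.099). SLC7A6 rose by more in intron reads (0.80, SE 0.0891) than in exon reads.

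**Figure D3:**
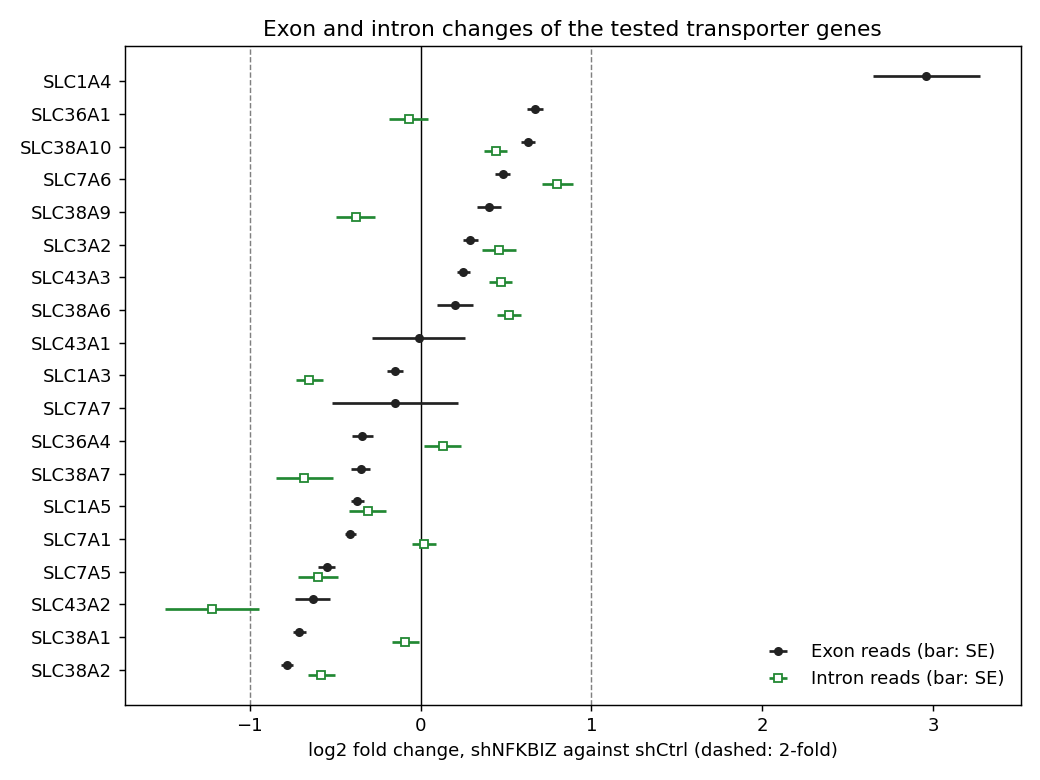
Log2 fold changes of shNFKBIZ against shCtrl for the 19 tested transporter genes, in exon reads (filled circles) and, for 16 of them, in intron reads (open squares), with bars of 1 SE and dashed lines at 2-fold. SLC1A4 lies alone at 2.96, and SLC38A9 has an exon change of 0.40 and an intron change of -0.38.

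Other genes of amino acid handling were compared from 3 lists compiled by hand. Of 29 other amino acid transporters, 18 were tested and 8 had an adjusted P of at most 0.05, 4 higher and 4 lower, a share of 44.4% against 65.3% of all genes. Past the 2-fold threshold were SLC6A17 and SLC17A7, 11.1% of those tested against 8.96% of all genes. SLC6A17, a vesicular carrier of neutral amino acids, had 355, 415 and 336 reads in shCtrl and 1063, 1050 and 933 in shNFKBIZ, and rose from 9.04 ± 0.606 to 26.2 ± 2.19 TPM (log2 fold change 1.45, SE 0.0682, adjusted P 7.84e-14, edgeR). SLC17A7, the vesicular glutamate transporter VGLUT1, fell from 16, 23 and 21 reads to 1, 2 and 4, a ratio of 0.123 (exact 95% interval 0.0474 to 0.269, for counting error only). Its log2 fold change was -3.05 and became -3.64 without shNFKBIZ replicate 3, and it was not tested with a minimum of 10 counts in every library. The most abundant genes of this list had small log2 fold changes, with 0.05 for SLC6A6, the taurine carrier (adjusted P 0.199, edgeR), 0.27 for SLC25A22, a mitochondrial glutamate carrier (SE 0.0399), and -0.37 for SFXN3 (SE 0.0521).

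Of 44 listed symbols for the sensing of amino acids by mTORC1 and GCN2, 43 were in the files and 42 were tested. With an adjusted P of at most 0.05, 27 differed, 16 higher and 11 lower (64.3%, close to the 65.3% of all genes). Past the 2-fold threshold were CASTOR2, SESN3 and TFEB, each of them lower, a share of 7.14% against 8.96% of all genes (5.12% lower). With library size alone 4 were past it, 1 of them higher, and without shNFKBIZ replicate 3 it was also 4, all of them lower. CASTOR2, a relative of the arginine sensor CASTOR1, had 164, 190 and 160 reads in shCtrl and 34, 39 and 32 in shNFKBIZ (log2 fold change -2.30, SE 0.141, adjusted P 3.99e-12, edgeR). SESN3, of the sestrin family of leucine and stress sensors, fell from 2.7 ± 0.131 to 0.883 ± 0.025 TPM (log2 fold change -1.69, SE 0.126, adjusted P 1.04e-10, edgeR). The other sestrins of the list, at higher levels, rose. SESN1 went from 9.61 to 15.3 TPM (log2 fold change 0.59, SE 0.0604) and SESN2 from 42.8 to 64.1 TPM (0.50, SE 0.0669). TFEB, a regulator of lysosomal genes, had 56, 56 and 32 reads against 14, 17 and 27 (log2 fold change -1.32, SE 0.266, adjusted P 0.000188, edgeR). The 3 most abundant genes of the list rose slightly, with log2 fold changes of 0.20 (SE 0.0424) for RRAGA and 0.38 (SE 0.0457) for LAMTOR1, which belong to the lysosomal docking complex, and 0.14 (SE 0.038) for GCN1. Among the genes just short of 2-fold, MTOR, the kinase of mTORC1, fell (-0.97, SE 0.0484) and ITFG2 rose (0.94, SE 0.0625).

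Of 46 genes for amino acid synthesis and breakdown, 33 were tested and 23 had an adjusted P of at most 0.05, 7 higher and 16 lower (69.7%, against 65.3% of all genes). Past the 2-fold threshold were ASNS and KYNU, both lower, a share of 6.06% against 8.96% of all genes (5.12% lower). ASNS, asparagine synthetase, fell from 73.8 ± 7.8 to 33.2 ± 1.79 TPM (log2 fold change -1.23, SE 0.0854, adjusted P 2.47e-06, edgeR), and 2.07% of its exon reads were unique to it. With those reads alone the log2 fold change was -1.41. KYNU, of tryptophan breakdown, fell from 29.7 ± 0.976 to 13.4 ± 0.292 TPM (log2 fold change -1.22, SE 0.0392, adjusted P 5.34e-17, edgeR). The most abundant genes of this list were ODC1, of polyamine synthesis (log2 fold change 0.52, SE 0.033), MAT2A, of S-adenosylmethionine synthesis (0.49, SE 0.0762), and AHCY (-0.38, SE 0.0389). The median log2 fold changes were 0.02 for the other transporters, 0.07 for the sensing list and -0.17 for the enzymes, beside 0.0043 for all tested genes.

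**Figure D4:**
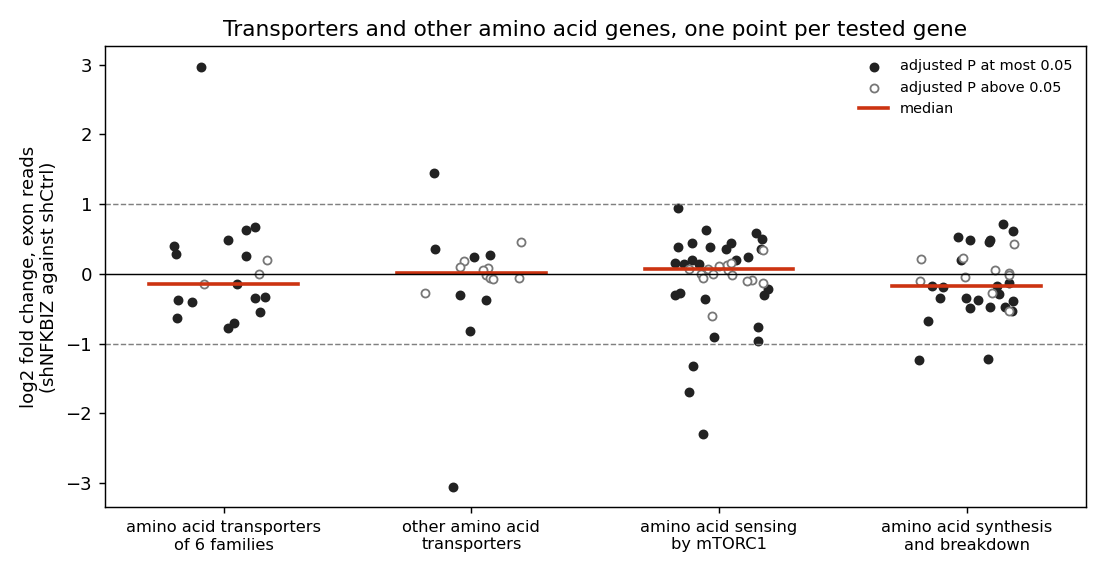
Log2 fold changes in exon reads of shNFKBIZ against shCtrl, with 1 point per tested gene, for the amino acid transporters of the 6 families and the 3 other lists, where filled points have an adjusted P of at most 0.05, red lines are medians and dashed lines mark 2-fold. Past the 2-fold lines lie SLC1A4 among the 19 transporters, 2 of 18 other transporters, 3 of 42 sensing genes and 2 of 33 enzymes.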

How the data were processed

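The authors mapped the reads to hg38 (GRCh38.109) in CLC Genomics Workbench with default settings and without using strand, and deposited, for each library, whole-number counts of fragments per gene (exon, intron and gene reads, total and unique). TPM values were computed anew from exon length and total exon reads, since the deposited ones use a decimal comma. Sample titles gave the group and the replicate number, and the labels name no batch. Total exon reads were filtered with filterByExpr (13843 genes left), scaled with TMM factors and tested by quasi-likelihood in edgeR 4.0.16 (robust, two-sided, R 4.3.3), with Benjamini-Hochberg adjustment over all genes tested. SE values were derived from the F statistic. Intron reads were fitted likewise. The model of exon against intron change (library blocks, interaction term) was added after both changes had been seen, as were the motif searches and TPM ratios.

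The members, lists and tests were chosen with earlier results of these data known. Members at 1 TPM or more in a group were named with their values, those past the threshold or among the 8 of highest TPM by library, and from the lists those past the threshold and the 3 of highest TPM. In simulated counts of shNFKBIZ against shCtrl, all of 200 genes changed by 3-fold among 13687 were recovered and 1 other was called. The changed genes were drawn from those at higher counts, with the same dispersion for every gene. This simulation therefore does not cover genes at counts as low as those of SLC1A4, or changes below 3-fold. Alternatives were RLE factors, library size alone, no filter, 10 counts in every library, DESeq2 1.42.0, unique reads, total gene reads, a replicate block, leaving out each library and a TPM difference above 4. Protein sequences were not used here.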

Additional observations from a re-analysis of the deposited data

How the results depend on the processing

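The count of transporters past the 2-fold threshold was 1 in the reported fit and 1 with RLE factors, library size alone, DESeq2, unique exon reads, total gene reads, a replicate block, and without each library in turn. It was 0 where 10 counts were required in every library, where SLC1A4 is removed by the filter, and 0 where a difference in mean TPM above 4 was required, which SLC1A4 does not reach at its level. At an unadjusted P under 0.05, 16 of the 19 differed in the reported edgeR fit. Without a filter the count past the 2-fold threshold was 2, the second being SLC3A1. The count of other amino acid transporters was 1 with 10 counts in every library and 1 with the TPM difference, and that of the sensing genes was 0 with the TPM difference (edgeR, 28 at an unadjusted P under 0.05 in the reported fit). These settings leave out genes of low level. The log2 fold change of SLC1A4 ranged from 2.14 (total gene reads) to 3.34 over the alternatives that gave one. SLC43A1 changed sign with library size alone (0.08), and without shCtrl replicate 3 (0.02), shNFKBIZ replicate 2 (0.01) or shNFKBIZ replicate 3 (0.23), with a range of -0.33 to 0.23 over the libraries left out. SLC7A7 did so without shNFKBIZ replicate 1 (0.04), with a range of -0.47 to 0.04. Both stand at low counts, neither was called in any setting, and the cause was not tested. With library size alone the median of all genes moved to 0.094, and the transporters called were 8 higher and 8 lower. NFKBIZ ranged from -1.83 to -1.66.

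Libraries with the same replicate number were not treated as pairs in the reported fit. Over all tested genes their deviations from the group means had correlations of 0.0207, 0.0561 and 0.0288. These low values cannot show that pairing was absent, since counting error also lowers them. A replicate block made the SE smaller for some transporters (SLC7A5, 0.039 against 0.0493) and larger for others (SLC1A4, 0.333 against 0.312). With a replicate block 16 transporters had an adjusted P of at most 0.05, 1 of them past the 2-fold threshold, and the counts past that threshold in the other 3 lists and on intron reads were as reported. This block was not run for the other counts by adjusted P alone, and the model of exon against intron change has a block per library instead.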
